A study of Mus musculus with 6 samples.

Results

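The Toll-like receptors of B cells and the proteins that fold, carry and connect them were followed in the RNA of day 3 in vitro germinal center B cells (iGCBs). Cells with Cre-driven deletion of Eif3e, the gene of the translation factor subunit eIF3e, were compared with control cells. The 10 genes, taken by symbol from a table of 24499 genes, were Tlr1, Tlr4, Tlr6, Tlr7, Tlr9, Cd180, Ly86, Ly96, Unc93b1 and Myd88. The cKO group comprised 3 libraries from mice of genotype Eif3e fl/fl Cγ1Cre Rosa26-YFP LSL. The other group comprised 3 libraries from control mice, whose genotype is labelled only as control. In other experiments the authors used Cγ1Cre Rosa26-YFP LSL mice as controls, and whether that holds here is not stated. In both groups, naïve B cells from the spleen were grown for 3 days in 1 ng/ml IL-4 on 40LB cells. These are a BALB/c fibroblast feeder line that expresses CD40L and BAFF and was irradiated with 120 Gy. YFP+ cells, which had expressed Cγ1Cre, were sorted and sequenced as bulk polyA RNA. The mice were on a C57BL/6J background and their ages are not given in the labels. Because the Cre starts to act during the culture, the cKO cells had lost Eif3e for only part of the 3 days.

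Toll-like receptors are membrane proteins that bind microbial lipids, proteins or nucleic acids. TLR4, with its partner MD-2 (encoded by Ly96), binds bacterial lipopolysaccharide at the cell surface, and RP105 (Cd180), with its partner MD-1 (Ly86), is a related surface receptor that B cells express. TLR1 and TLR6 each pair with TLR2 to bind bacterial lipoproteins, while TLR7 and TLR9 bind single-stranded RNA and unmethylated CpG DNA in endosomes, where UNC93B1 delivers them. MyD88 is the adaptor that links these receptors, RP105 aside, to kinases and NF-κB, and in B cells the pathway drives proliferation, antibody secretion and, when unchecked, responses to self nucleic acids.

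The libraries held between 39079582 and 45504570 estimated counts. The targeted gene, Eif3e, stood at 173, 150 and 152 CPM (counts scaled to library size with TMM factors) in cKO replicates 1 to 3 and at 424, 401 and 392 CPM in control replicates 1 to 3, a log2 fold change of -1.36 ± 0.0657 (SE; edgeR's quasi-likelihood test, adjusted p = 6.71e-07). The B cell marker Cd79a lay at 731 to 797 CPM in cKO and 967 to 1030 CPM in control libraries, and Ms4a1, which encodes CD20, at 677 to 722 and 536 to 645 CPM, while Blk, a B cell kinase gene, was 1.82-fold lower in cKO (162 against 294 CPM on average, adjusted p = 7.3e-06 by edgeR). The iGCB markers Fas and Bcl6 lay at 88.5 to 94.6 and 81.3 to 86.8 CPM in cKO and at 65.4 to 74.0 and 99.9 to 110 CPM in control libraries. Of 11 macrophage and monocyte markers, which matter here because those cells are rich in several of these receptors, the sum was 12.1 to 13.6 CPM in cKO and 9.99 to 12.7 CPM in control libraries, and Mertk, C1qc and Cd14 were listed at 0 in all 6. Within that list Adgre1, which encodes F4/80, was higher in cKO (3.64, 4.67 and 5.54 against 0.62, 0.916 and 2.02 CPM, adjusted p = 0.00203 by edgeR), while Cd68 was at 7.59 to 8.04 against 8.69 to 10.6 CPM (adjusted p = 0.06) and Csf1r, Lyz2 and Fcgr1 stayed at or below 0.333 CPM. Dendritic cell markers (7 genes) summed to 41.5 to 57.1 and 49.1 to 56.1 CPM with Siglech at 0, and past both cutoffs Zbtb46 was 1.78-fold higher and Flt3 1.63-fold lower in cKO. Fibroblast markers (10 genes) summed to 99.7 to 125 and 77.1 to 142 CPM with Lum at 0, and Fn1 was 2.1-fold higher in cKO (adjusted p = 0.000651), while the other 6 tested did not pass. T cell markers summed to at most 0.355 CPM. The 6 plasmablast markers summed to 646 to 788 CPM in cKO and 831 to 852 CPM in control libraries and changed strongly one by one. Jchain (7.25 against 116 CPM on average, 16.0-fold lower in cKO), Xbp1 (2.14-fold) and Prdm1 (2.19-fold) fell, Sdc1 rose 3.02-fold and Irf4 1.34-fold, and Tnfrsf17 was too low to test. The part of these shifts in the results was not tested, and in bulk RNA fewer cells of a type and less RNA per cell cannot be told apart.

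Loss of Eif3e came with a mixed picture among the receptors. RNA for Tlr4, Tlr9 and Cd180 fell, and RNA for Tlr7 rose, by more than 1.5-fold at an adjusted p under 0.05. All 10 genes passed the filter on low counts. Past both cutoffs were 3 genes lower in cKO, where 10.6% of the 13296 genes tested were lower, and 1 gene higher, where 10.4% were higher. By adjusted p alone, 5 were lower (with Ly96 and Unc93b1) and 2 higher (with Tlr1), against 24.5% and 24.1% of all genes, and 3 (Tlr6, Ly86 and Myd88) did not pass. The libraries of the 2 groups did not overlap for 8 of the 10, 6 lower and 2 higher in cKO, while 58.7% of all genes tested had groups that did not overlap. The median log2 fold change of the 10 genes was -0.42, that of all genes tested -0.0040. The replicates are labelled as repeats and described by the authors as biological replicates. The p-values measure the spread between them, and whether each is a separate mouse is not stated.

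**Figure D1:**
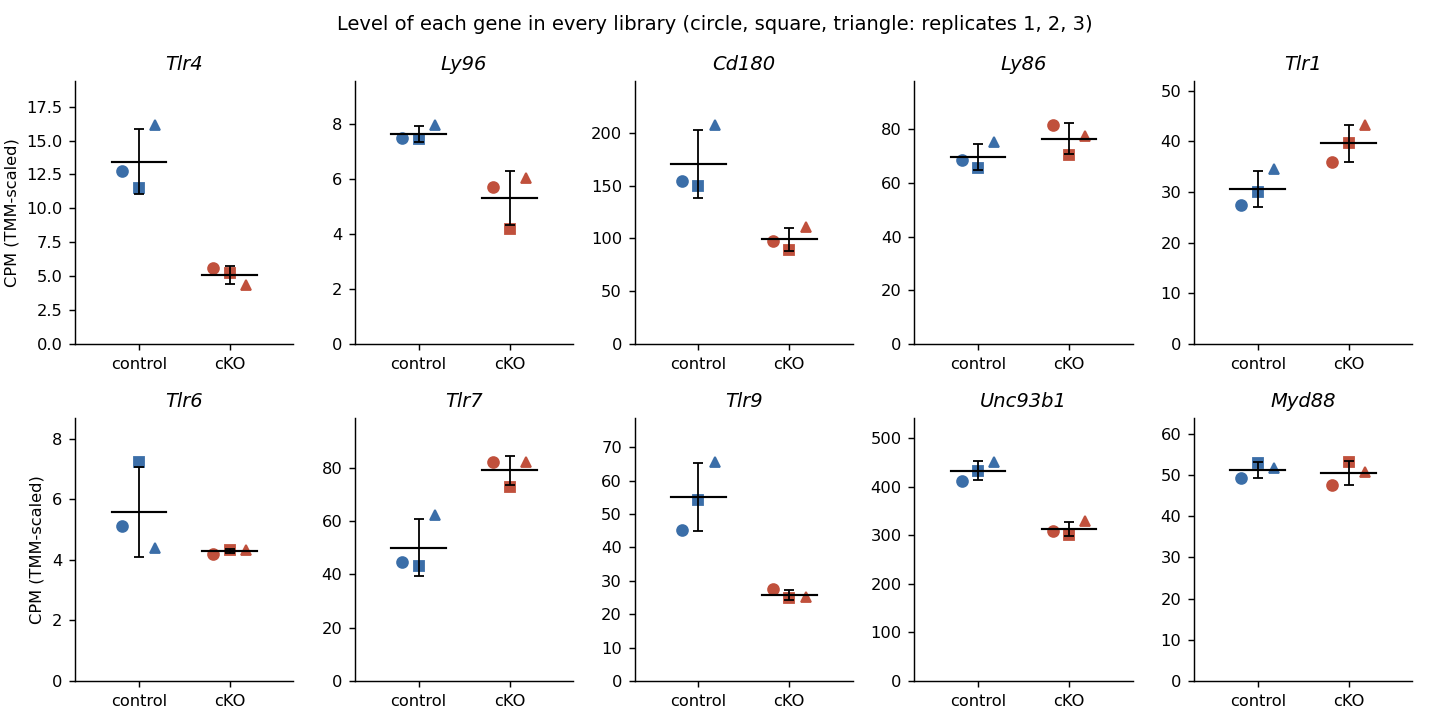
TMM-scaled CPM of each gene in every library, with circles, squares and triangles for replicates 1, 2 and 3, a bar at the group mean and whiskers of 1 SD (n = 3), each axis starting at 0. The control and cKO points are apart for all genes but Ly86 and Myd88, and the 3 cKO points of Tlr4 lie between 4.38 and 5.62 CPM.

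Of the surface receptors, Tlr4 lay in GRCm38 on the plus strand of chromosome 4, from 66827584 to 66930284. It stood at 5.62, 5.27 and 4.38 CPM in cKO replicates 1 to 3 and at 12.7, 11.5 and 16.1 CPM in control replicates 1 to 3. Every cKO library was thus under every control library, in a gene of low level in both groups. Tlr4 fell to 37.9% of its control level (log2 fold change -1.40 ± 0.164 SE, edgeR's quasi-likelihood test, adjusted p = 7.22e-05), the widest change of the 10 in that fit. Ly96 (chromosome 1, 16688051 to 16709611, plus strand) encodes MD-2, the subunit that holds the lipid of lipopolysaccharide. Its libraries read 5.71, 4.18 and 6.04 CPM in cKO and 7.49, 7.45 and 7.97 CPM in control. The control libraries were close to each other, and cKO replicate 2 was the lowest of the 6. Ly96 fell by 0.53 on the log2 scale (SE 0.167, adjusted p = 0.0246 by edgeR), short of 1.5-fold. This call depended on single libraries: its adjusted p was 0.0812 without cKO replicate 2, and 0.0621, 0.0528 and 0.0647 without control replicates 1, 2 and 3. In the other direction, Ly96 was past both cutoffs without cKO replicate 3 (-0.63, adjusted p = 0.0203) and with the level of Xist, described for Tlr7, as a covariate (-0.65, adjusted p = 0.0107). CD14, which hands lipopolysaccharide to this pair, was listed at 0 in every library.

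Cd180 and Ly86, whose proteins form the RP105 and MD-1 complex, moved apart. Cd180 (chromosome 13, 102693558 to 102739629, plus strand) stood at 97.1, 89.5 and 111 CPM in cKO replicates 1 to 3 and at 154, 150 and 207 CPM in control replicates 1 to 3. The groups did not overlap, and control replicate 3 was well above the other controls. Cd180 fell to 58.2% of control (log2 fold change -0.78 ± 0.122 SE, adjusted p = 0.00046 by edgeR). Exons annotated at the Cd180 locus overlap exons of Mast4, and whether strand was used in counting is not given in the sources used here. Ly86 (chromosome 13, 37345208 to 37419036, plus strand) read 81.5, 70.1 and 77.3 CPM in cKO and 68.3, 65.3 and 75.0 CPM in control. Here the groups overlapped, and the log2 fold change of 0.13 ± 0.0742 (SE) did not pass the test (adjusted p = 0.164 by edgeR).

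**Figure D2:**
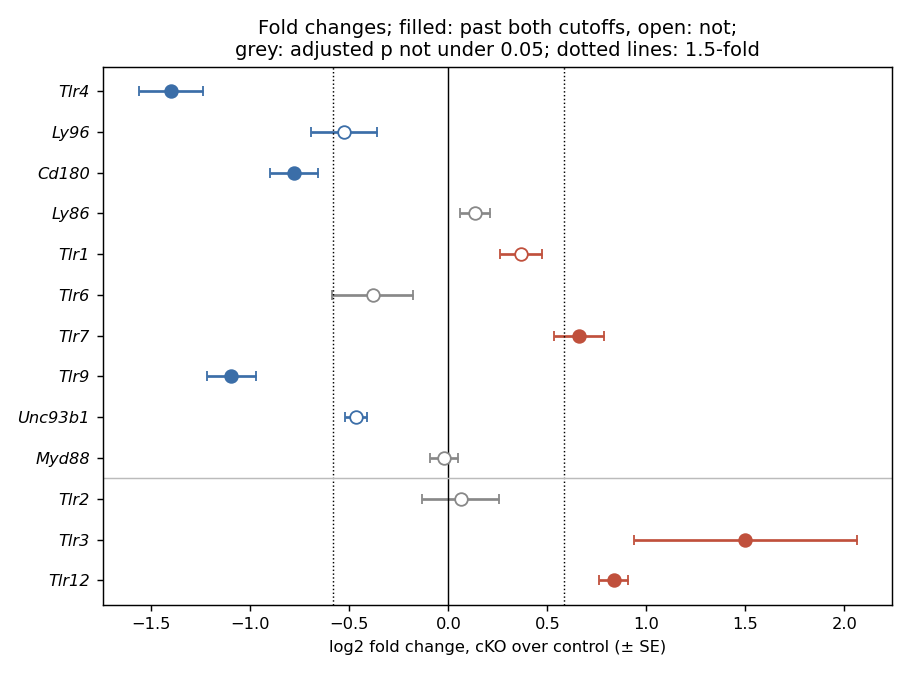
Log2 fold change of cKO over control (points) with its SE (bars) for the 10 genes and, under the grey line, the other Toll-like receptors that could be tested. Tlr4, Tlr9 and Cd180 lie left of the 1.5-fold line, Tlr7, Tlr3 and Tlr12 right of it, and Ly86, Tlr6, Myd88 and Tlr2 are grey because their adjusted p was not under 0.05.

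Tlr1 and Tlr6 are neighbours on the minus strand of chromosome 5 (64924679 to 64933563 and 64952031 to 64960097) and close relatives. Their mRNAs share an identical run of 229 bases, and 15.3% of the 50-base windows of Tlr1 and 12.5% of those of Tlr6 occur in the other, so reads may have been divided between them and both values are uncertain. No other pair among the 10 shared such a window. Tlr1 stood at 35.8, 39.7 and 43.2 CPM in cKO replicates 1 to 3 and at 27.5, 30.0 and 34.5 CPM in control replicates 1 to 3. Its highest control library was just below its lowest cKO library. Tlr1 rose by a log2 fold change of 0.37 ± 0.106 (SE, adjusted p = 0.0155 by edgeR), under 1.5-fold, and the adjusted p became 0.0725 without cKO replicate 3 and 0.0649 without control replicate 1. Tlr6 read 4.21, 4.31 and 4.34 CPM in cKO and 5.12, 7.25 and 4.40 CPM in control. The cKO libraries were almost equal and control replicate 3 lay next to them, and the log2 fold change of -0.38 ± 0.204 (SE) did not pass the test (adjusted p = 0.151 by edgeR).

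A second table of the same libraries held estimated counts per RefSeq transcript, and for each of the 10 genes the transcripts added up to the gene. It listed 17 transcripts of these genes, of which 16 were tested. Past both cutoffs, 1 was higher in cKO (6.26% of the 18040 transcripts tested were) and 3 were lower (6.8% were): the single listed transcripts of Tlr4, Tlr9 and Cd180 were the lower ones. The higher one was a form of Tlr1 with 4 exons, which starts at an upstream first exon (64933526 to 64933561) and shares its whole coding region of 2385 bases with the other listed form, of 3 exons, whose first exon lies at 64932667 to 64932761. The 4-exon form took 88.4%, 97.5% and 93.1% of the Tlr1 counts in cKO replicates 1 to 3 and 72.4%, 56.6% and 80.3% in control replicates 1 to 3. Its share was thus higher in every cKO library than in any control library, with the widest spread among controls. The share averaged 93.0% ± 4.58 in cKO and 69.8% ± 12.1 in control (SD, n = 3 each); p was 0.1 in an exact permutation test (two-sided), and 3 libraries against 3 can give none smaller. By counts, the 4-exon form had a log2 fold change of 0.78 ± 0.206 (SE, adjusted p = 0.042 by edgeR). The 3-exon form, with 189, 44 and 126 counts in cKO and 342, 512 and 280 in control, had one of -1.76 ± 0.582 (SE), which did not pass (adjusted p = 0.0813). The forms differ by 337 and 95 bases of exon of their own, so only reads that touch these bases tell them apart. None of the 5 Tlr7 transcripts passed on its own, although the gene did. Without cKO replicate 1, and likewise without cKO replicate 2, 2 transcripts were called in place of 4.

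**Figure D3:**
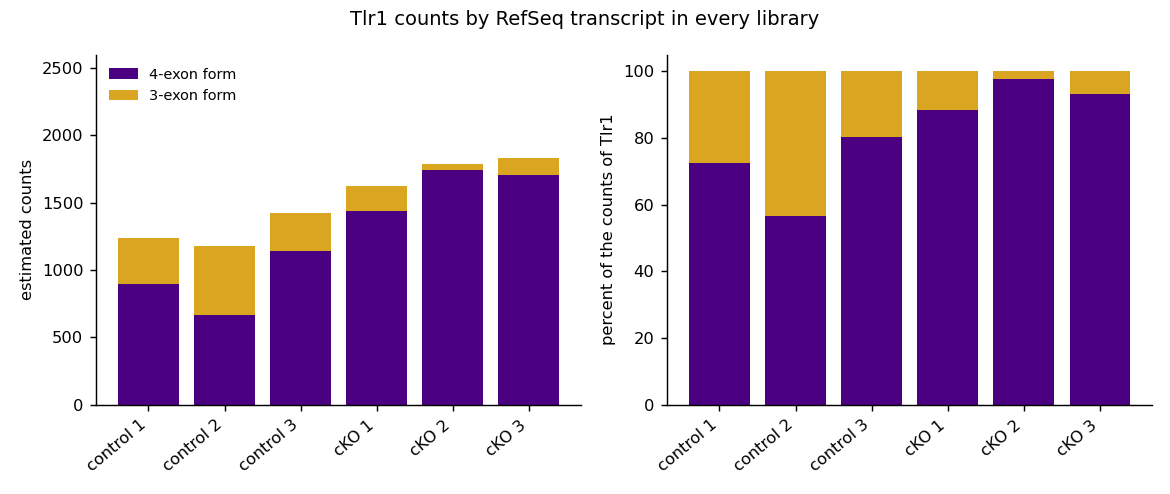
Estimated counts of Tlr1 (left) and their share in percent (right) by transcript in every library, with the 4-exon form in purple and the 3-exon form in yellow. The 4-exon form holds 88.4% or more of the counts in each cKO library and 80.3% or less in each control library.

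The endosomal receptors moved in opposite directions. Tlr7 (chromosome X, 167304929 to 167330558, minus strand), the receptor for single-stranded RNA, stood at 82.1, 72.8 and 82.4 CPM in cKO replicates 1 to 3 and at 44.7, 43.0 and 62.5 CPM in control replicates 1 to 3. All cKO libraries were above all controls, of which replicate 3 was the highest. Tlr7 rose to 158% of control (log2 fold change 0.66 ± 0.128 SE, adjusted p = 0.00175 by edgeR). The libraries differed in Xist, an RNA of the inactive X chromosome and so of female cells. It reached 1184 CPM in cKO replicate 2 and 1305 and 1804 CPM in control replicates 1 and 2. In cKO replicates 1 and 3 and control replicate 3 it was at most 0.389 CPM, so the sexes were unevenly spread over the groups. With the level of Xist as a covariate, Tlr7 was higher in cKO by 0.55 (log2, adjusted p = 0.000492), under 1.5-fold. It was also under 1.5-fold without control replicate 1 (0.58) and without control replicate 2 (0.55), and past it in the other 12 of 15 alternative settings.

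Tlr9 (chromosome 9, 106222598 to 106226883, plus strand), the receptor for CpG DNA, stood at 27.5, 24.7 and 25.1 CPM in cKO replicates 1 to 3 and at 45.3, 54.1 and 65.7 CPM in control replicates 1 to 3. The cKO libraries were close together and far below the controls, which spread more widely. Tlr9 fell to 46.8% of control (log2 fold change -1.10 ± 0.125 SE, adjusted p = 6.18e-05 by edgeR). UNC93B1, the membrane protein that carries TLR7 and TLR9 from the endoplasmic reticulum to endosomes, is encoded on the plus strand of chromosome 19 (3935186 to 3949340). Its gene read 310, 301 and 330 CPM in cKO and 413, 433 and 452 CPM in control. Each group spanned a narrow range and the ranges were apart. Unc93b1 fell to 72.4% of control, a log2 fold change of -0.47 ± 0.0556 (SE, adjusted p = 8.13e-05 by edgeR) that stayed under 1.5-fold in all 15 alternative settings.

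The bases just before the start of Tlr9 and Cd180 are shown because these genes fell past both cutoffs and RefSeq's table for GRCm38.p6, which matched 6 of the 10 genes, held their windows. Both are 250 bases long, on the plus strand, at chr9:106222348-106222597 for Tlr9 and chr13:102693297-102693546 for Cd180. Capitals mark matches on either strand to any of 5 motifs chosen after these sequences were seen: ATGCAAAT (octamer), TGANTCA (AP-1), GAGGAAG (PU.1), GAAANNGAA (IRF) and GGGANTTTC (κB).
Tlr9: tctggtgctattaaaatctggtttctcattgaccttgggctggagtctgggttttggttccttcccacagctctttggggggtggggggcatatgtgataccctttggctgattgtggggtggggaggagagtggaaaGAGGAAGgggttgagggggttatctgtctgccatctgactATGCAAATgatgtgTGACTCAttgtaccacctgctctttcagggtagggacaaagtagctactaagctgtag
Cd180: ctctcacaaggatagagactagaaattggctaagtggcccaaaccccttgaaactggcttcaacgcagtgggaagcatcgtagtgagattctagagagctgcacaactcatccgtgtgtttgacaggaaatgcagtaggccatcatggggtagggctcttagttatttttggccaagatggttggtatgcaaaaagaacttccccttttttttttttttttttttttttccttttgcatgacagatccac
The Tlr9 window holds the octamer with its first base 72 bases before the start, an AP-1 match at 58 and a PU.1 match at 112, none of which overlap. Of 32851 RefSeq windows of the same length, 1.60% held the octamer, 6.75% the AP-1 motif, 10.6% the PU.1 motif, 7.13% the IRF motif and 0.941% the κB motif. The Cd180 window holds none of the 5, and neither do the shorter windows left for Tlr1 (208 bases) and Ly86 (113 bases) once exon bases were removed, whereas the 227 bases left for Myd88 hold 1 IRF match. These are matches of letters and say nothing of binding.

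Myd88, the shared adaptor (chromosome 9, 119335934 to 119341411, minus strand), read 47.5, 53.3 and 50.7 CPM in cKO replicates 1 to 3 and 49.2, 52.9 and 51.7 CPM in control replicates 1 to 3. The libraries of the groups were interleaved. Its log2 fold change was -0.02 ± 0.0707 (SE, adjusted p = 0.828 by edgeR), and it lay between -0.061 and 0.020 in the 15 alternative settings. Exons annotated at this locus overlap exons of Acaa1a.

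Ratios of 2 genes within a library do not depend on scaling between libraries, and 6 pairs of partners or relatives were compared. For Cd180 over Ly86 the CPM ratio was 1.19, 1.28 and 1.44 in cKO replicates 1 to 3 and 2.26, 2.30 and 2.77 in control replicates 1 to 3. For Tlr9 over Tlr7 it was 0.335, 0.340 and 0.304 in cKO and 1.01, 1.26 and 1.05 in control. RNA for the DNA receptor thus slightly exceeded RNA for the RNA receptor in every control library, in CPM, and was about 3 times lower in every cKO library. On the log2 scale the difference of means (cKO minus control) was -1.76 for Tlr9 over Tlr7, -0.90 for Cd180 over Ly86, -0.85 for Tlr4 over Ly96, -0.62 for Tlr9 over Unc93b1, 0.72 for Tlr1 over Tlr6 and 1.14 for Tlr7 over Unc93b1. The groups were apart in all 6 pairs. No such share was computed over other gene pairs, and 58.7% of single genes tested had groups that did not overlap. Tlr7, Tlr9 and Unc93b1 recur among the pairs, so the 6 are not independent. The two-sided exact permutation test gave p = 0.1 for each, and 0.1 after adjustment over the 6 pairs, the smallest value that 3 against 3 libraries can give.

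**Figure D4:**
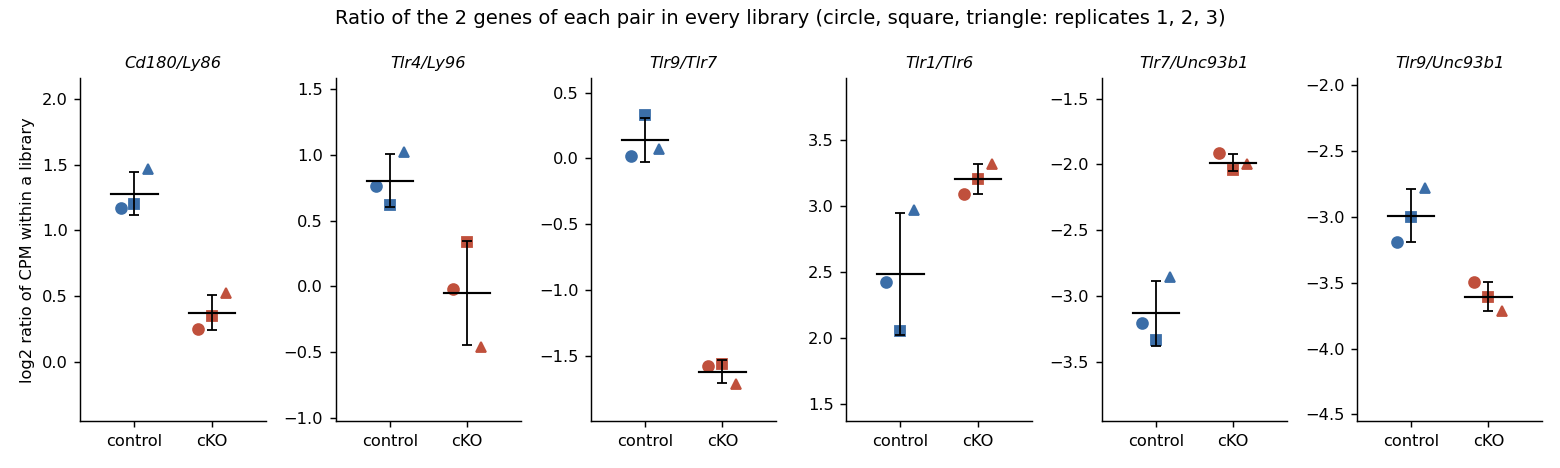
Log2 ratio of the CPM of both genes of each pair within every library, with symbols for replicates as labelled, a bar at the mean and whiskers of 1 SD (n = 3). All panels span the same number of log2 units, and the widest gap between groups is that of Tlr9 over Tlr7, -1.76 on average.

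Per kilobase of the longest listed transcript, Unc93b1 was the most abundant of the 10 genes in both groups, at 191 ± 8.62 CPM per kb in control and 138 ± 6.56 in cKO (SD, n = 3). In control it was followed by Cd180 (64.3), Ly86 (61.3), Myd88 (26.1), Tlr9 (15.8), Tlr7 (12.8), Ly96 (12.1), Tlr1 (10.1), Tlr4 (3.30) and Tlr6 (1.52 CPM per kb). Neighbours in this order whose control libraries overlapped were Cd180 and Ly86, Tlr9 and Tlr7, and Tlr7 and Ly96. In cKO the order was Unc93b1, Ly86 (67.3), Cd180 (37.4), Myd88 (25.8), Tlr7 (20.3), Tlr1 (13.1), Ly96 (8.40), Tlr9 (7.41), Tlr4 (1.25) and Tlr6 (1.17 CPM per kb). There Tlr9 had moved from rank 5 to rank 8, and its libraries overlapped those of Ly96, as did those of Tlr4 with Tlr6. Tlr7 and Tlr9, which overlapped in control, were apart in cKO.

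The receptors outside the 10 were mostly low. Of 7, Tlr5 and Tlr11 were listed at 0 in all libraries, and Tlr8 (at most 0.097 CPM) and Tlr13 (at most 0.507 CPM) were too low to test. Tlr12, a mouse receptor for the protein profilin, stood at 59.7, 64.9 and 60.6 CPM in cKO replicates 1 to 3 and at 35.0, 36.1 and 32.8 CPM in control replicates 1 to 3. It rose by 0.83 (log2, SE 0.0724, adjusted p = 1.14e-05 by edgeR), with the groups apart. Tlr3, the receptor for double-stranded RNA, had 38, 36 and 45 counts in cKO and 8, 22 and 9 in control, with a log2 fold change of 1.5 (SE 0.562) at an adjusted p of 0.0485 by edgeR. It was higher in all 14 alternative settings that gave it a value, but past the threshold in only 4 (adjusted p = 0.0568 by DESeq2, and 0.0973, 0.0953, 0.15, 0.142 and 0.121 by edgeR without cKO replicates 1, 2 and 3 and control replicates 1 and 3). Tlr2, the partner of TLR1 and TLR6, read 7.60, 5.07 and 5.68 CPM in cKO and 5.47, 5.16 and 6.95 CPM in control, which overlap, with a log2 fold change of 0.06 (adjusted p = 0.82).

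Among 23 adaptors, kinases and transcription factors downstream of the receptors, 5 were lower and 2 higher past both cutoffs, 13 were lower and 5 higher by adjusted p alone, beside 10.6% and 10.4%, and 24.5% and 24.1%, of all genes tested, and the median log2 fold change was -0.22. The adaptors other than MyD88 did not move together. Tirap, which brings MyD88 to surface receptors (log2 fold change -0.71 ± 0.144 SE, adjusted p = 0.00228), and Ticam1, the TRIF adaptor of TLR3 and TLR4 (-0.86 ± 0.115, adjusted p = 0.000167), fell, and Ticam2, which connects TRIF to TLR4, rose (1.08 ± 0.0665, adjusted p = 1.96e-06). Ticam2 stood at 114, 122 and 114 CPM in cKO replicates 1 to 3 and at 58.8, 55.8 and 50.8 CPM in control replicates 1 to 3, so that every cKO library was above every control. The kinase gene Irak2 fell to 8.35, 7.93 and 9.10 CPM from 17.6, 16.2 and 18.7 CPM (-1.05 ± 0.111, adjusted p = 3.87e-05). Of the genes that serve TLR7 and TLR9 on endolysosomes, 5430427O19Rik (now named Tasl), an adaptor for IRF5, fell (-0.75, adjusted p = 0.00685), as did its transporter partner Slc15a4, under 1.5-fold (-0.57, adjusted p = 8.9e-05). Pik3ap1, which encodes the phosphoinositide kinase adaptor BCAP, also fell (-0.62, adjusted p = 9.08e-06). The interferon factor Irf7 was higher (0.80 ± 0.271, adjusted p = 0.0326), a call lost without cKO replicates 1 or 3 or control replicates 1 or 2 (adjusted p = 0.0597, 0.136, 0.104 and 0.122). Irf5 had a log2 fold change of -0.13 (adjusted p = 0.111).

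Of 18 genes for folding, transport and processing of the receptors, 4 were lower and none higher past both cutoffs (10.6% and 10.4% of all genes tested), and 5 were lower and 3 higher by adjusted p alone (24.5% and 24.1%), with a median log2 fold change of -0.052. The lower ones were Ap3b1, a subunit of the AP-3 complex that sorts cargo to lysosome-related compartments (-0.87 ± 0.0543 SE, adjusted p = 2.12e-06 by edgeR), Sdcbp, which encodes the UNC93B1-binding protein syntenin-1 (-0.85 ± 0.0606, adjusted p = 3.99e-06), Lgmn, an endolysosomal protease that can cleave TLR9 (-0.83 ± 0.0736, adjusted p = 1.29e-05), and Hps1, a part of the BLOC-3 complex (-0.73 ± 0.0717, adjusted p = 2.43e-05). The chaperone genes of the receptors, Hsp90b1 (gp96) and Cnpy3, did not pass, with log2 fold changes of 0.09 (adjusted p = 0.158) and 0.02 (adjusted p = 0.795).

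**Figure D5:**
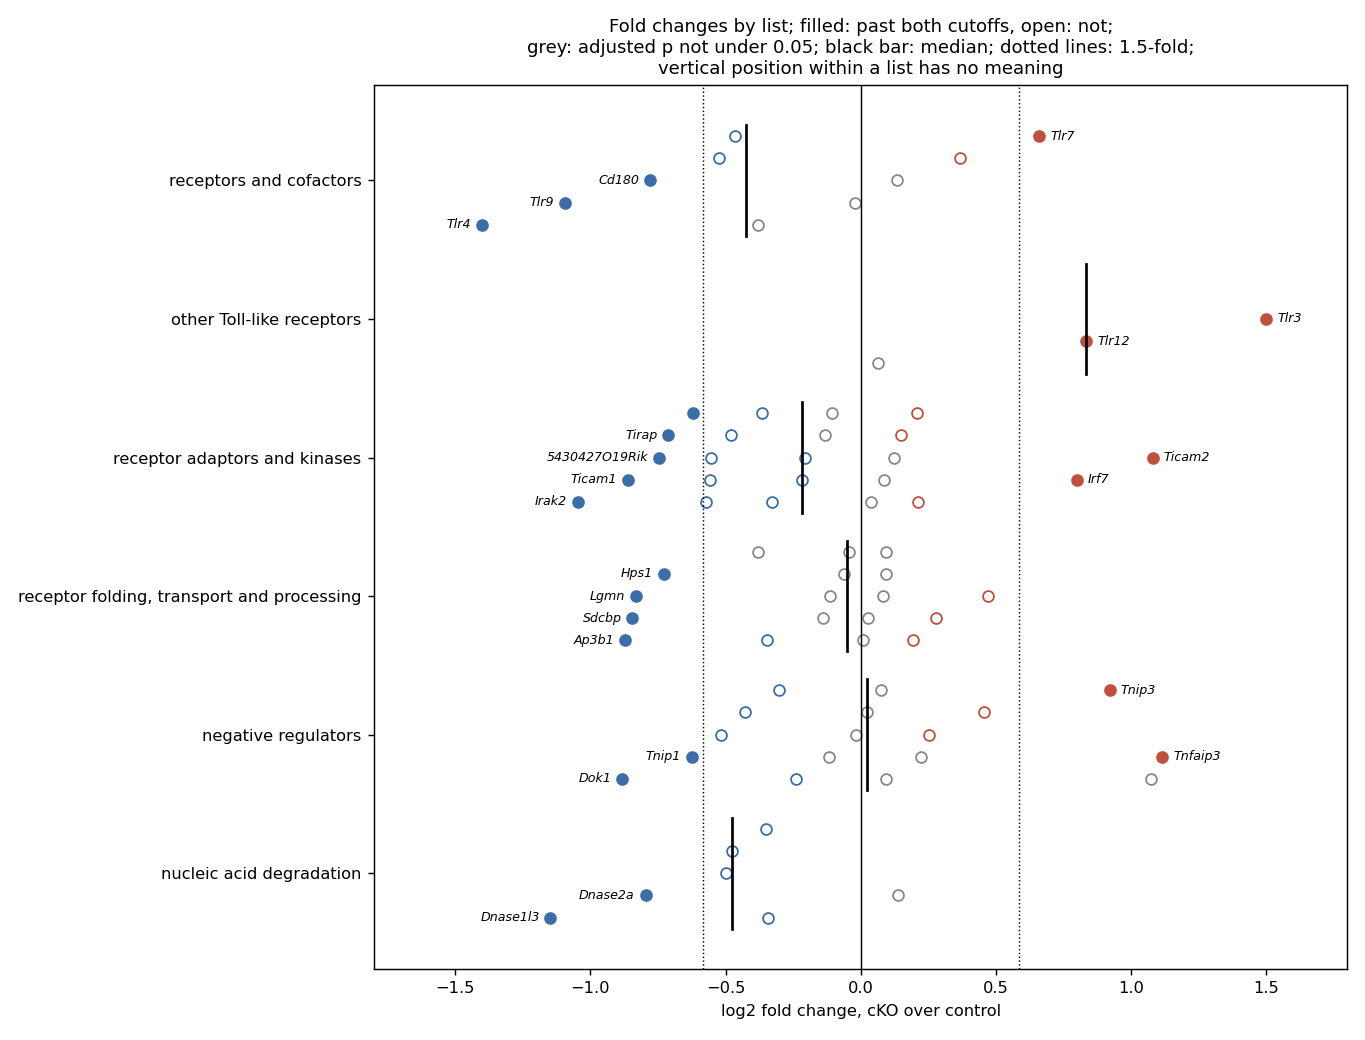
Log2 fold change of cKO over control for each tested gene (points) of the 10 receptors and cofactors and of 5 further lists, with a black bar at each list's median. The medians run from -0.48 for nucleic acid degradation to 0.83 for the other Toll-like receptors, of which 3 could be tested.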

How the data were processed

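YFP+ day 3 iGCBs of cKO and control mice were measured by bulk RNA-seq, with 3 libraries per group. The authors trimmed reads and, per the submitters' processing notes, aligned them to mm10 with HISAT2 and assembled with StringTie. The deposited gene and transcript tables hold estimated counts, which StringTie derives from read coverage. Versions, annotation and strand setting are not given in the sources used here. Reads shared by near-identical genes or transcripts may have been divided by that estimate, which was not checked.

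Genes were filtered with filterByExpr (minimum count 10), scaled by TMM and fitted across the whole table with edgeR 4.0.16 in R 4.3.3 (quasi-likelihood test, no covariates). Calls required a Benjamini-Hochberg adjusted p under 0.05 and over 1.5-fold. Scripts were tested on simulated data. The alternatives were DESeq2 1.42.0, edgeR with DESeq2's size factors or with total counts only, all genes with any count, a stricter filter of 10 counts per library, a replicate block, the level of Xist or of the fibroblast markers as a covariate, counts divided by 2, and each library left out in turn, which make 15 settings, plus a test against 1.5-fold. The 10 members and all lists were chosen with earlier results of these data known. All 10 are named. From each list, up to 6 genes past both cutoffs with the widest change are named, and all other Toll-like receptors are named. Slc15a4, Irf5, Pik3ap1, Hsp90b1, Cnpy3, Cd14, Clec4e, Hmgb1, Cd36, Rnaset2a, Rnaset2b, Trex1 and the single marker genes other than those listed at 0 were added after their values were seen. Loci come from GENCODE M21 (GRCm38) and start windows from RefSeq. Transcripts were assigned to genes through RefSeq, which matched 34674 of 36026. Some marker genes are not reported here.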

Additional observations from a re-analysis of the deposited data

How the results depend on the processing

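With 3 libraries per group, exact tests could not go below 0.1, and Tlr4, Tlr6 and Ly96, at the fewest counts per library, were measured least precisely. Tlr4, Tlr9 and Cd180 stayed past both cutoffs in all 15 alternatives to edgeR's fit, with log2 fold changes of -1.51 to -1.25, -1.22 to -0.95 and -0.89 to -0.61. A test against 1.5-fold itself left 2 of the 4 called, so not all of Tlr4, Tlr9 and Cd180 kept their call in it. Leaving out 1 library gave 3 to 5 calls among the 10 genes and 2 to 4 among their transcripts, with 2 both without cKO replicate 1 and without cKO replicate 2. DESeq2 called 1 of the other Toll-like receptors (Tlr12) higher, against 2 by edgeR (Tlr12 and Tlr3). The labels do not say whether equal replicate numbers mark paired libraries. Correlations of deviations from the group means were 0.0028, 0.11 and 0.20 for replicates 1 to 3, and so few libraries cannot decide it. A replicate block again gave 4 calls among the 10 genes and 1 among the other receptors, Tlr3 having an adjusted p of 0.0695 by edgeR. The causes were not tested. None of these alternatives reversed the direction of a called gene among the 10 or among the 19 list genes past both cutoffs, for which all but DESeq2 and the block were added after seeing the data. Of the 19, 16 stayed under the adjusted p threshold throughout, and Tlr3, Irf7 and Tnip3 did not. Under 1.5-fold came Tirap without control replicate 2 (-0.56), 5430427O19Rik without cKO replicate 2 (-0.56) and Irf7 without cKO replicate 3 (0.51) and with Xist as a covariate (0.54).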

Other observations

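Genes for nucleic acid degradation, several of which encode nucleases that act on ligands of endosomal receptors, were mostly lower in cKO. Of 7 tested, 2 fell past both cutoffs and 6 fell by adjusted p alone, where 10.6% and 24.5% of all genes tested were lower. None rose past the test, and the median log2 fold change was -0.48. The 6 include Rnaset2a and Rnaset2b (-0.35 and -0.34), and whether reads were divided between these was not examined. Trex1 did not pass (0.14, adjusted p = 0.389 by edgeR). Dnase1l3, which encodes a secreted DNase that digests chromatin, stood at 78.8, 75.8 and 57.7 CPM in cKO replicates 1 to 3 and at 169, 164 and 138 CPM in control replicates 1 to 3. It fell by 1.15 on the log2 scale (SE 0.116, adjusted p = 2.93e-05 by edgeR's quasi-likelihood test). Dnase2a, the lysosomal DNase, read 22.9, 20.5 and 21.3 CPM in cKO and 35.5, 38.5 and 38.4 CPM in control, a fall of 0.80 (SE 0.0849, adjusted p = 3.99e-05). The groups were apart for both. Of 17 negative regulators of the pathway, 2 were lower and 2 higher past both cutoffs, close to the shares of all genes tested (10.6% and 10.4%), with a median of 0.022. Dok1, an inhibitory adaptor, fell by 0.88 and Tnip1, a partner of the ubiquitin-editing enzyme A20, by 0.63. Tnfaip3, which encodes A20, rose to 248, 298 and 320 CPM in cKO from 111, 139 and 150 CPM in control (log2 fold change 1.11, SE 0.116, adjusted p = 3.48e-05), and Tnip3 was higher by 0.92 (adjusted p = 0.017, but 0.0626 without cKO replicate 3 and 0.0533 without control replicate 1). Of 5 coreceptors that present ligands, Hmgb1 and Cd36 could be tested and did not pass (-0.07 and 0.03), and Cd14 and Clec4e were listed at 0.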
